A study of Mus musculus with 12 samples.

Results

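The genes described here are 34 genes of leukocyte signalling and cytoskeleton, read in the hippocampus of mice with amyloid pathology. They were chosen by name: every row of the count table whose Ensembl identifier belongs to 1 of 34 listed mouse symbols was a member, out of 56980 rows in all. Of these 34 genes, 33 had enough reads to be tested, among 19152 tested genes. Evi2b was the member left out. The list was drawn up with the age and genotype comparisons of the same libraries already known. The counts of members called below therefore describe the chosen genes, and they are not independent evidence that such genes move.

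The study sequenced messenger RNA from whole hippocampus of 12 male mice, 3 in each of 4 groups. All mice carried the AppNL-G-F knock-in, in which the mouse amyloid precursor protein gene holds a humanised amyloid-beta sequence with familial Alzheimer's mutations. One genotype had the knock-in alone (App-KI below) and the other also lacked Trem2, a lipid-sensing receptor of microglia (Trem2-KO below), each at 3 and at 9 months of age. No mouse without the knock-in was analysed here, so age and the time under the knock-in cannot be told apart. Each library came from 1 mouse, and p-values measure only the spread between these mice.

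Leukocytes share a set of surface receptors, adaptors and actin regulators that other cells of the body largely lack. CD45 and the integrin chains sit at the surface, adaptors and phosphoinositide 3-kinases pass receptor signals inward, and Rac with its activators turns them into actin remodelling, adhesion and uptake. In healthy brain tissue microglia, the resident macrophages, supply most of this RNA, with smaller amounts from macrophages at the brain's borders and from blood cells. Bulk RNA cannot tell fewer cells of a type from less RNA per cell, which holds for every result below.

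Promoter sequence was printed for 3 members because they stand for the ways a purine-rich motif lay in these promoters. RefSeq's table for build GRCm38.p6 held promoters of 26 of the 34 members, in 33 windows of 300 bases that run from 250 bases before to 50 after a start. Each line below gives the last 120 bases before the start, 5′ to 3′ on the gene's strand, with the motif in capitals. The motif was GAGGAAGT in Cd37 and Samsn1, an element of the kind bound by the myeloid factor PU.1, and its shorter core GAGGAA in Itgam, both searched on either strand.
Cd37, chr7:45238840-45238959 (minus strand): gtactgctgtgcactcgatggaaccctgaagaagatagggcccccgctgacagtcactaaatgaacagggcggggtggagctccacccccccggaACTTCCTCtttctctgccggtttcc
Samsn1, chr16:75909267-75909386 (minus strand): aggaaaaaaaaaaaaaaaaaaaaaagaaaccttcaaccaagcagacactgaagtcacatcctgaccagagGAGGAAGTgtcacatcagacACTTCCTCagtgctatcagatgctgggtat
Itgam, chr7:128062520-128062639 (plus strand): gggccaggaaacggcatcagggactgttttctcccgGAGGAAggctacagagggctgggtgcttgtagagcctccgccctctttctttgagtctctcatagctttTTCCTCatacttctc
Cd37 held the longer motif once in this stretch, in the reverse direction. Samsn1 held it on both strands within 120 bases, and Itgam held only the core, once in each direction. Over the members, 7 of 33 windows (21.2%) held GAGGAAGT, from Cd37, Cd53, Cyth4, Evi2b, Pik3cg and Samsn1. The share among all 32851 promoter windows was 3.2%. The core, which the longer motif contains, lay in 18 of the 33 windows (54.5%) and in 28.3% of all windows. By gene it lay in 17 of 26 members (65.4%) and in 31.3% of all genes. A match describes the letters only and shows no binding.

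Library totals ran from 14627892 to 24594655 counts, and levels are given in CPM, the usual unit that scales a count to its library's total, here after TMM scaling. At these depths 3 counts stood for 0.122 to 0.206 CPM. Trem2 itself read 8.05 to 10.4 CPM in App-KI at 3 months and 49.8 to 55.6 CPM at 9 months. In the Trem2-KO libraries it read 1.85 to 2.17 and 3.62 to 3.83 CPM, lower at each age than all App-KI libraries. The labels do not say which part of Trem2 was deleted.

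The members' RNA more than doubled with age in App-KI mice and rose less in Trem2-KO mice. Summed over the list, App-KI mice had 304 ± 6.18 CPM (SD, n = 3) at 3 months and 700.3 ± 17.1 CPM at 9 months. Trem2-KO mice had 300.9 ± 4.45 CPM at 3 months and 449 ± 18.5 CPM at 9 months. In this sum, to which Coro1a adds the most at 3 months, the young groups overlapped, and every App-KI library of 9 months lay above every Trem2-KO library of that age. The mean log2 CPM of the tested members, in which each gene weighs the same, did not overlap at 3 months, with 2.35 to 2.41 in App-KI and 2.26 to 2.31 in Trem2-KO. At 9 months it was 3.81 to 3.90 and 3.01 to 3.17. As a share of all counts, the members took 0.0298% to 0.0310% in App-KI at 3 months and 0.0688% to 0.0720% at 9 months, against 0.0296% to 0.0303% and 0.0436% to 0.0466% in Trem2-KO.

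Gene by gene, 32 of the 33 tested members rose between 3 and 9 months in App-KI mice and none fell, at an adjusted p under 0.05. Among all tested genes, 6.66% were called in either direction in this comparison, 3.95% as higher and 2.71% as lower. The members' median log2 fold change was 1.25, with a range of 0.06 to 3.42, and the median of all genes was -0.0011. Libraries of the 2 ages did not overlap for 32 members, all of them higher at 9 months, against 22.7% of all genes (11.2% higher and 11.5% lower). Leaving out any 1 library left 31 or 32 members called, and Aif1 was the gene whose call was lost.

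In Trem2-KO mice, 27 members rose with age, and the 6 not called were Aif1, Arhgap30, Coro1a, Hcls1, Klhl6 and Samsn1. Of all genes, 8.7% were called in this comparison, 5.68% as higher and 3.02% as lower. The members' median was 0.85 and ranged from -0.18 to 2.20, beside 0.0023 for all genes. Between 21 and 27 members were called when 1 library was left out, the lowest without Trem2-KO 3 months mouse 3. With the mean log2 CPM of meningeal fibroblast genes as a covariate 3 were called, Myo1f, Mpeg1 and Lyz2, at a median of 0.75. The members' median standard error then went from 0.15 to 0.28. This covariate was higher in all Trem2-KO libraries of 9 months than in any other library, so the 2 can hardly be told apart. Libraries of the 2 ages did not overlap for 30 members, all higher at 9 months, against 25.4% of all genes (13.5% higher and 11.9% lower).

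At 9 months 24 members were lower in Trem2-KO than in App-KI and none was higher. Of all genes, 2.08% were called at this age, 1.39% as lower and 0.684% as higher. The median over the 33 members was -0.71, between -2.11 and -0.04, beside 0.0066 for all genes. All 33 values were below 0, and for 29 members every Trem2-KO library lay under every App-KI library, against 17.3% of all genes in either direction (9.04% lower and 8.28% higher). The 9 members not called were Adgre1, Aif1, Arhgap30, Arhgdib, Coro1a, Lcp2, Pik3cg, Rac2 and Was. This comparison shares the App-KI libraries of 9 months with the age comparison in App-KI.

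How many members were called at 9 months depended on single libraries and on a covariate. Without App-KI 9 months mouse 1, App-KI 9 months mouse 2 or Trem2-KO 9 months mouse 1 the count was 16. The same 15 genes were called whichever library was left out. They were Cd48, Cd52, Cd53, Cd84, Cyth4, Dock2, Hcls1, Itgb2, Lcp1, Lyz2, Mpeg1, Myo1f, Nckap1l, Ptprc and Samsn1. With the meningeal fibroblast covariate, 6 members were called, namely Ptprc, Itgb2, Fyb, Lcp1, Mpeg1 and Lyz2. The members' median was then -0.80, and their median standard error went from 0.14 to 0.27. The covariate was 4.80 to 5.29 in Trem2-KO at 9 months and at most 4.59 in every other library. In this fit the covariate and that group can therefore hardly be told apart.

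At 3 months no member was called between the genotypes by edgeR's quasi-likelihood test, and DESeq2 called 0 as well. An unadjusted p under 0.05 was reached by 8 of the 33 members and by 2151 of the 19152 tested genes. After adjustment 0.59% of all genes were called (0.423% as lower and 0.167% as higher). The median of the members was -0.12, from -0.65 to 0.50, with 11 values above 0 and 22 below, beside 0.0028 for all genes. Libraries of the 2 genotypes did not overlap for 7 members, 1 higher and 6 lower in Trem2-KO, against 17.6% of all genes (8.65% higher and 8.94% lower).

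**Figure D1:**
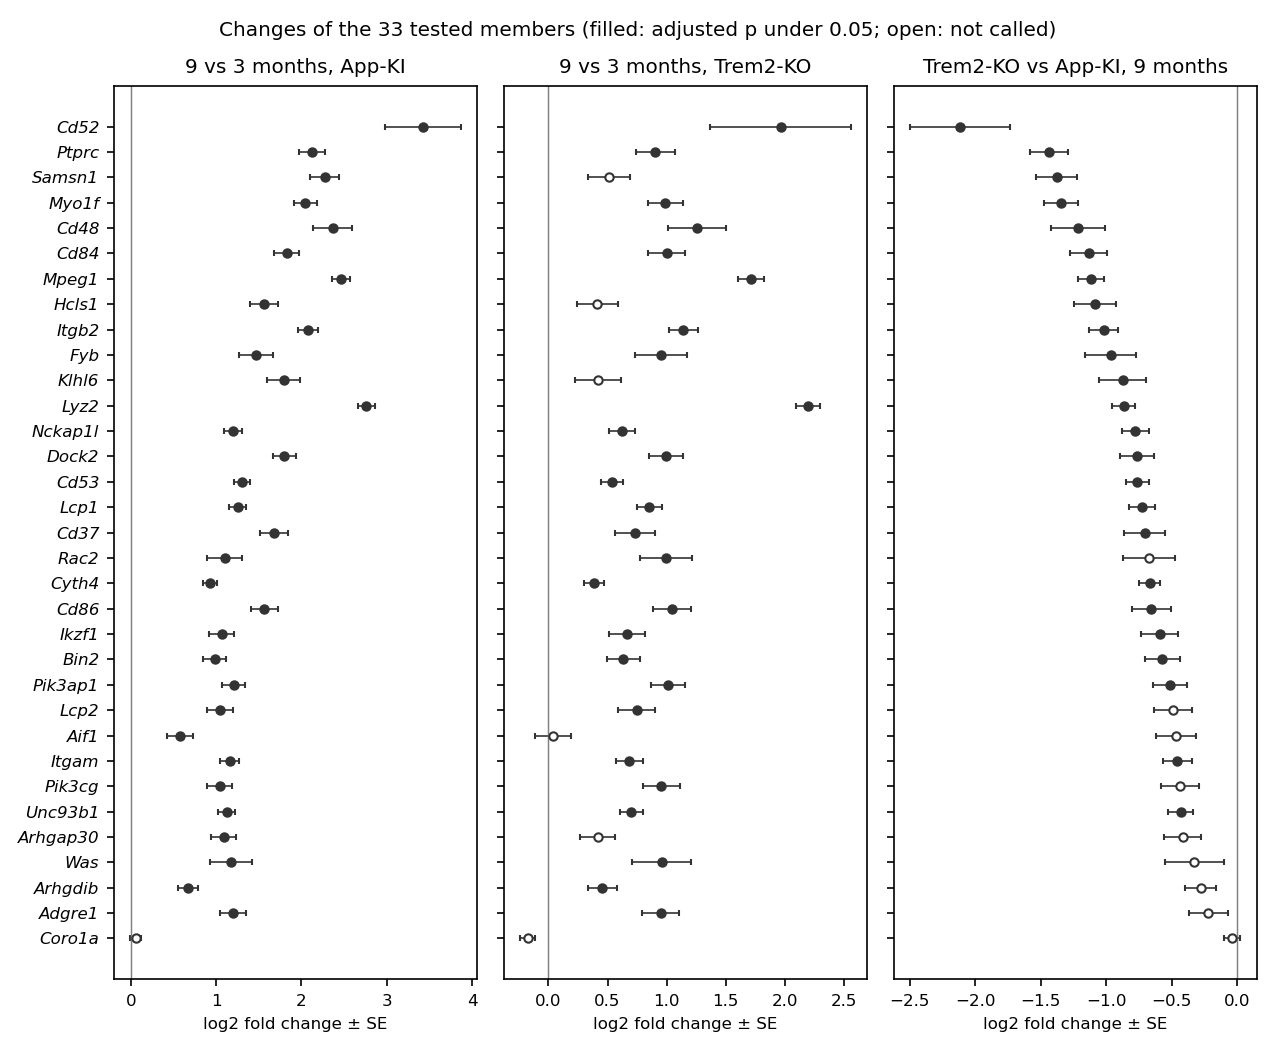
Log2 fold changes (x axes, points with standard error bars) of the 33 tested members (rows) from 3 to 9 months in App-KI, over the same interval in Trem2-KO, and between the genotypes at 9 months, with 3 libraries a group. Filled points were called and open points were not: 32, 27 and 24 are filled, and Coro1a lies near 0 in all panels.

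Among the surface proteins, all 10 tested members rose with age in both genotypes and 9 were lower in Trem2-KO at 9 months. Adgre1 was the surface member not called between genotypes. The median log2 fold change of the 10 was 1.75 with age in App-KI, 0.98 with age in Trem2-KO and -0.89 between genotypes at 9 months.

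Ptprc encodes CD45, the receptor tyrosine phosphatase of nucleated blood cells. It read 5.01, 2.97 and 3.95 CPM in App-KI at 3 months and 17.3, 17.97 and 17.5 CPM at 9 months. Ptprc read 3.77, 2.99 and 3.71 CPM and 6.09, 7.04 and 6.36 CPM in Trem2-KO at these ages. The 3 App-KI libraries of 9 months stood apart from all other libraries, and the Trem2-KO libraries of 9 months lay above both young groups. The gene rose by 2.13 ± 0.15 (SE, log2 scale) in App-KI and by 0.91 ± 0.16 in Trem2-KO. It was -1.44 ± 0.15 between genotypes at 9 months (edgeR's quasi-likelihood test, Benjamini-Hochberg adjusted p = 2.56e-06), which left 36.9% of the App-KI level.

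Itgb2 is the beta chain shared by the leukocyte integrins, and Itgam is the alpha chain that pairs with it as CD11b. Itgb2 read 6.24, 5.31 and 5.85 CPM in App-KI at 3 months and 22.9, 27.3 and 23.4 CPM at 9 months. Itgb2 in Trem2-KO read 6.24, 5.14 and 5.204 CPM and 11.8, 13.1 and 11.3 CPM. The genotypes overlapped at 3 months and were apart at 9 months. Itgb2 was lower in Trem2-KO by a log2 difference of -1.02 ± 0.11, to 49.3% of the App-KI level. Itgam rose by 1.16 ± 0.11 with age in App-KI and by 0.68 ± 0.11 in Trem2-KO, and differed by -0.46 ± 0.11 between genotypes at 9 months. Its call was lost without App-KI 9 months mouse 1, 2 or 3 or Trem2-KO 9 months mouse 1.

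Cd53 and Cd37 are tetraspanins, membrane proteins that organise other receptors. Cd53 read 11.98, 12.04 and 14.7 CPM in App-KI at 3 months and 32.2, 31.1 and 32.5 CPM at 9 months. Cd53 in Trem2-KO read 13.8, 12.6 and 12.5 CPM and 18.4, 19.3 and 18.7 CPM. All 6 libraries of 3 months lay under all 6 of 9 months, and at 9 months the genotypes were apart by over 10 CPM. The genotype difference at 9 months was -0.76 ± 0.09 (SE, log2 scale). Cd37 rose by 1.68 ± 0.17 in App-KI and by 0.73 ± 0.17 in Trem2-KO and differed by -0.71 ± 0.16 between genotypes. The Cd37 genotype call was lost without App-KI 9 months mouse 1, 2 or 3 or Trem2-KO 9 months mouse 1 or 2, and its age call in Trem2-KO without Trem2-KO 3 months mouse 2.

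Cd52 encodes a short glycoprotein held in the membrane by a lipid anchor, and it had the widest values of the list with age in App-KI and between genotypes at 9 months, on few reads. The App-KI libraries held 6, 3 and 5 counts at 3 months (0.245, 0.171 and 0.244 CPM) and 33, 39 and 55 counts at 9 months (1.74, 2.09 and 3.61 CPM). The Trem2-KO libraries held 4, 1 and 3 counts at 3 months and 9, 17 and 9 counts at 9 months (0.397, 0.815 and 0.477 CPM). Only the App-KI libraries of 9 months exceeded 1 CPM, and the young groups overlapped near the level of 3 counts. The genotype difference at 9 months was -2.11 ± 0.38, to 22.7% of the App-KI level. With the meningeal fibroblast covariate it was -0.99 and not called, and the age value in Trem2-KO was 3.10 and not called. Cd52 rose by 3.42 ± 0.44 with age in App-KI and by 1.96 ± 0.59 in Trem2-KO, and the latter call was lost without Trem2-KO 3 months mouse 2 or 3 or Trem2-KO 9 months mouse 2.

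Cd48 and Cd84 belong to the SLAM family of receptors by which leukocytes bind each other. Cd48 read 0.978, 0.913 and 0.829 CPM in App-KI at 3 months and 4.11, 4.56 and 5.51 CPM at 9 months. Cd48 in Trem2-KO read 0.891, 0.791 and 0.867 CPM and 1.72, 2.396 and 1.96 CPM. The lowest App-KI library of 9 months was above the highest Trem2-KO library of that age. Cd48 differed by -1.22 ± 0.20 and Cd84 by -1.13 ± 0.14 between genotypes at 9 months. Cd84 rose by 1.83 ± 0.15 with age in App-KI and by 1.001 ± 0.16 in Trem2-KO.

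Cd86 is a ligand that co-stimulates T cells. It rose by 1.56 ± 0.16 in App-KI and by 1.04 ± 0.16 in Trem2-KO, and its genotype difference at 9 months was -0.66 ± 0.15. That call was lost without any 1 of 5 libraries, App-KI 9 months mouse 1, 2 or 3 or Trem2-KO 9 months mouse 1 or 2.

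Adgre1 encodes F4/80, an adhesion receptor used to mark mouse macrophages. It read 6.52, 4.51 and 5.22 CPM in App-KI at 3 months and 10.7, 14.4 and 12.5 CPM at 9 months. Adgre1 in Trem2-KO read 6.24, 5.67 and 4.87 CPM and 9.27, 11.7 and 11.3 CPM. The ages were apart in each genotype, while the genotypes overlapped at both ages. Its age values were 1.20 ± 0.15 in App-KI and 0.95 ± 0.16 in Trem2-KO. The genotype value at 9 months was -0.22 ± 0.15 and was not called.

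Evi2b, a leukocyte membrane protein gene, was at 1 count in 5 libraries and at 0 in the other 7. In the GENCODE annotation 98.5% of its exon bases are shared on the same strand with Evi2, which read 0.211 CPM on average, and how reads there were assigned is not given in the sources used here. The neighbouring Evi2a read 30.4 to 42.2 CPM over the 12 libraries. No statement on Evi2b expression can be drawn from its own row.

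The adaptors and kinases had a median log2 fold change of 1.21 with age in App-KI, where all 7 rose. It was 0.75 in Trem2-KO, where 5 rose. Between genotypes at 9 months the median was -0.67 and 5 were lower, with Lcp2 and Pik3cg not called.

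Samsn1 is an adaptor with SH3 and SAM domains that dampens lymphocyte receptor signals. It read 2.201, 2.28 and 2.49 CPM in App-KI at 3 months and 12.02, 10.1 and 11.5 CPM at 9 months. Samsn1 in Trem2-KO read 2.88, 3.16 and 2.99 CPM and 3.62, 5.56 and 3.77 CPM. The Trem2-KO libraries lay above the App-KI libraries at 3 months and below them at 9 months. Samsn1 rose by 2.27 ± 0.17 with age in App-KI. In Trem2-KO its age value was 0.51 ± 0.18 and was not called, though it was without Trem2-KO 9 months mouse 1. The genotype value was 0.38 ± 0.19 at 3 months, not called, and -1.38 ± 0.16 at 9 months (edgeR's quasi-likelihood test, Benjamini-Hochberg adjusted p = 1.42e-05). Under the meningeal fibroblast covariate the genotype value at 9 months was -0.85 and not called.

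Klhl6, a BTB-kelch protein of lymphocyte receptor signalling, had a like order of groups. It read 3.02, 1.83 and 2.19 CPM in App-KI at 3 months and 7.65, 9.06 and 8.003 CPM at 9 months. Klhl6 in Trem2-KO read 3.29, 4.0001 and 2.75 CPM and 3.71, 4.98 and 4.83 CPM. The genotypes overlapped at 3 months and were apart at 9 months, and the Trem2-KO ages overlapped. It rose by 1.79 ± 0.19 in App-KI, while the Trem2-KO age value of 0.42 ± 0.19 was not called. The genotype difference at 9 months was -0.87 ± 0.18, a call lost without App-KI 9 months mouse 2 or Trem2-KO 9 months mouse 1.

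Cyth4, a member of the cytohesins that load Arf proteins with GTP, rose by 0.93 ± 0.08 in App-KI and by 0.38 ± 0.08 in Trem2-KO and differed by -0.67 ± 0.08 between genotypes at 9 months. Fyb, the adaptor ADAP that links receptors to integrins, had 1.47 ± 0.20, 0.95 ± 0.22 and -0.97 ± 0.20 for these comparisons in turn. Its genotype call was lost without App-KI 9 months mouse 1, and its age call in Trem2-KO without Trem2-KO 3 months mouse 2 or 3. With the meningeal fibroblast covariate the genotype value of Fyb was -2.02, still called, and its age value in Trem2-KO was -0.12, not called. Cyth4 had -0.42 between genotypes and 0.64 with age in Trem2-KO under that covariate, neither of them called. Pik3ap1, the adaptor BCAP that recruits phosphoinositide 3-kinase, had 1.21 ± 0.14, 1.01 ± 0.14 and -0.51 ± 0.13. The genotype call of Pik3ap1 was lost in turn without any App-KI mouse of 9 months, App-KI 3 months mouse 3, Trem2-KO 9 months mouse 1 or 2 or Trem2-KO 3 months mouse 2 or 3.

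Lcp2 and Pik3cg were not called between the genotypes at 9 months. Lcp2, the scaffold SLP-76, read 4.44, 4.22 and 5.12 CPM in App-KI at 3 months and 9.86, 9.17 and 9.45 CPM at 9 months. Lcp2 in Trem2-KO read 4.59, 3.38 and 4.19 CPM and 5.69, 8.002 and 6.58 CPM. Its genotype value was -0.49 ± 0.15 and the libraries of 9 months did not overlap. Without Trem2-KO 9 months mouse 2 it was called.

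Pik3cg, the catalytic subunit of the phosphoinositide 3-kinase that answers G protein-coupled receptors, read 4.16, 3.88 and 5.07 CPM and 7.75, 9.28 and 10.1 CPM in App-KI. Pik3cg in Trem2-KO read 3.29, 3.74 and 3.23 CPM at 3 months and 6.18, 6.71 and 7.11 CPM at 9 months. Trem2-KO libraries were under App-KI libraries at each age. The genotype values were -0.35 ± 0.16 at 3 months and -0.44 ± 0.14 at 9 months, neither of them called. With age it rose by 1.04 ± 0.15 in App-KI and by 0.96 ± 0.15 in Trem2-KO.

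The 12 regulators of actin and small GTPases held most of the members that were not called. Their median was 1.14 with age in App-KI (11 of 12 rose), 0.63 in Trem2-KO (8 rose) and -0.62 between genotypes at 9 months (6 were lower).

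Myo1f is a class I myosin that moves membranes along actin in leukocytes. It read 4.77, 4.11 and 5.22 CPM in App-KI at 3 months and 18.98, 19.6 and 19.9 CPM at 9 months. Myo1f in Trem2-KO read 3.01, 4.0001 and 4.43 CPM and 7.68, 8.53 and 6.79 CPM. The App-KI libraries of 9 months were more than double every other library. Myo1f was lower in Trem2-KO at 9 months by a log2 difference of -1.34 ± 0.13 (edgeR's quasi-likelihood test, Benjamini-Hochberg adjusted p = 1.63e-06). It rose by 2.05 ± 0.14 with age in App-KI and by 0.99 ± 0.15 in Trem2-KO.

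Hcls1 encodes HS1, the leukocyte relative of cortactin, which stabilises branched actin. It read 2.81, 3.71 and 2.88 CPM in App-KI at 3 months and 9.91, 9.28 and 8.397 CPM at 9 months. Hcls1 in Trem2-KO read 2.88, 3.12 and 3.71 CPM and 4.06, 5.18 and 3.77 CPM. All Trem2-KO libraries stayed under 6 CPM, and the App-KI libraries of 9 months exceeded 8 CPM. It rose by 1.56 ± 0.17 in App-KI, its Trem2-KO age value of 0.41 ± 0.17 was not called, and the genotype difference at 9 months was -1.09 ± 0.16.

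Rac activation and branched actin were represented by Dock2, Rac2, Was and Nckap1l. Dock2, the exchange factor that loads Rac with GTP in leukocytes, rose by 1.80 ± 0.14 in App-KI and 0.99 ± 0.14 in Trem2-KO and differed by -0.77 ± 0.13 between genotypes at 9 months. Nckap1l, the haematopoietic subunit of the WAVE complex that Rac switches on, had 1.20 ± 0.11, 0.62 ± 0.11 and -0.78 ± 0.10 in the same order.

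Rac2 and Was were not called between genotypes. Rac2, the Rac GTPase of blood cells, read 2.57, 2.23 and 2.54 CPM and 5.64, 5.09 and 5.05 CPM in App-KI. Rac2 in Trem2-KO read 1.096, 2.07 and 1.69 CPM at 3 months and 3.31, 3.98 and 2.599 CPM at 9 months. Trem2-KO libraries were lower at both ages without overlap, with values of -0.56 ± 0.23 at 3 months and -0.67 ± 0.20 at 9 months that were not called. Was, the Wiskott-Aldrich syndrome protein that triggers branched actin, read 1.14, 0.913 and 1.37 CPM and 2.74, 2.84 and 2.16 CPM in App-KI. Was in Trem2-KO read 0.959, 1.27 and 0.916 CPM and 2.21, 1.87 and 2.12 CPM. The genotypes overlapped at both ages, and the genotype value at 9 months was -0.33 ± 0.23. Was rose by 1.17 ± 0.24 with age in App-KI and by 0.96 ± 0.25 in Trem2-KO, the latter not called without Trem2-KO 3 months mouse 1 or 3 or Trem2-KO 9 months mouse 1. The 2 genes held 738 and 401 counts over all 12 libraries.

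Lcp1, the actin-bundling L-plastin, rose by 1.25 ± 0.10 in App-KI and by 0.85 ± 0.11 in Trem2-KO and differed by -0.72 ± 0.10 between genotypes at 9 months. Bin2, a BAR-domain protein of podosomes, had 0.98 ± 0.14, 0.63 ± 0.14 and -0.57 ± 0.13. The Bin2 genotype call was lost without App-KI 9 months mouse 1 or 2 or Trem2-KO 9 months mouse 1, and its age call in Trem2-KO without Trem2-KO 3 months mouse 3 or Trem2-KO 9 months mouse 2.

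Arhgap30 and Arhgdib restrain small GTPases, the first by speeding GTP hydrolysis and the second by holding them in the cytosol. Arhgap30 read 3.79, 4.45 and 3.71 CPM in App-KI at 3 months and 7.804, 8.79 and 8.72 CPM at 9 months. Arhgap30 in Trem2-KO read 4.04, 5.58 and 4.43 CPM and 6.001, 6.23 and 6.74 CPM. It rose by 1.09 ± 0.15 in App-KI, and its values of 0.42 ± 0.15 with age in Trem2-KO and -0.42 ± 0.14 between genotypes were not called, although the genotypes did not overlap at 9 months. The age value in Trem2-KO was called without Trem2-KO 3 months mouse 2.

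Arhgdib read 7.99, 8.79 and 9.22 CPM and 12.6, 13.1 and 15.7 CPM in App-KI. Arhgdib in Trem2-KO read 8.497, 8.53 and 7.81 CPM at 3 months and 10.5, 10.8 and 12.8 CPM at 9 months. The highest Trem2-KO library of 9 months was above the lowest App-KI library of that age. Arhgdib rose by 0.67 ± 0.12 in App-KI and by 0.46 ± 0.12 in Trem2-KO, the latter not called without Trem2-KO 3 months mouse 2 or 3 or Trem2-KO 9 months mouse 3. Between genotypes at 9 months its value was -0.28 ± 0.12.

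Aif1 encodes Iba1, the actin-binding protein most used to stain microglia. It read 4.44, 4.11 and 3.66 CPM in App-KI at 3 months and 6.33, 6.17 and 5.71 CPM at 9 months. Aif1 in Trem2-KO read 5.002, 3.78 and 4.14 CPM and 4.55, 4.22 and 4.402 CPM. Trem2-KO libraries overlapped between ages, and at 9 months they lay under all App-KI libraries. Aif1 rose by 0.57 ± 0.15 in App-KI, a call lost without App-KI 3 months mouse 2 or 3 or App-KI 9 months mouse 1 or 2. It had 0.04 ± 0.15 with age in Trem2-KO and -0.47 ± 0.15 between genotypes, neither of them called.

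Coro1a, a coronin that binds actin filaments in leukocytes and is also made by neurons, did not follow the other members. It read 90.9, 99.8 and 104 CPM in App-KI at 3 months and 102, 106 and 98.004 CPM at 9 months. Coro1a in Trem2-KO read 103, 116 and 118 CPM and 96.1, 104 and 98.96 CPM. Its age value in App-KI was 0.06 ± 0.06 and its genotype value at 9 months -0.04 ± 0.06. With age in Trem2-KO it had -0.18 ± 0.06, which was called as lower only without Trem2-KO 3 months mouse 1. Its Pearson correlation with the mean log2 CPM of the other members was -0.24 over the 12 libraries, while that of Aif1 was 0.82 and those of the rest ran from 0.89 to 0.996. Libraries of 1 group share their condition, so these correlations describe the 4 groups and carry no test.

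**Figure D2:**
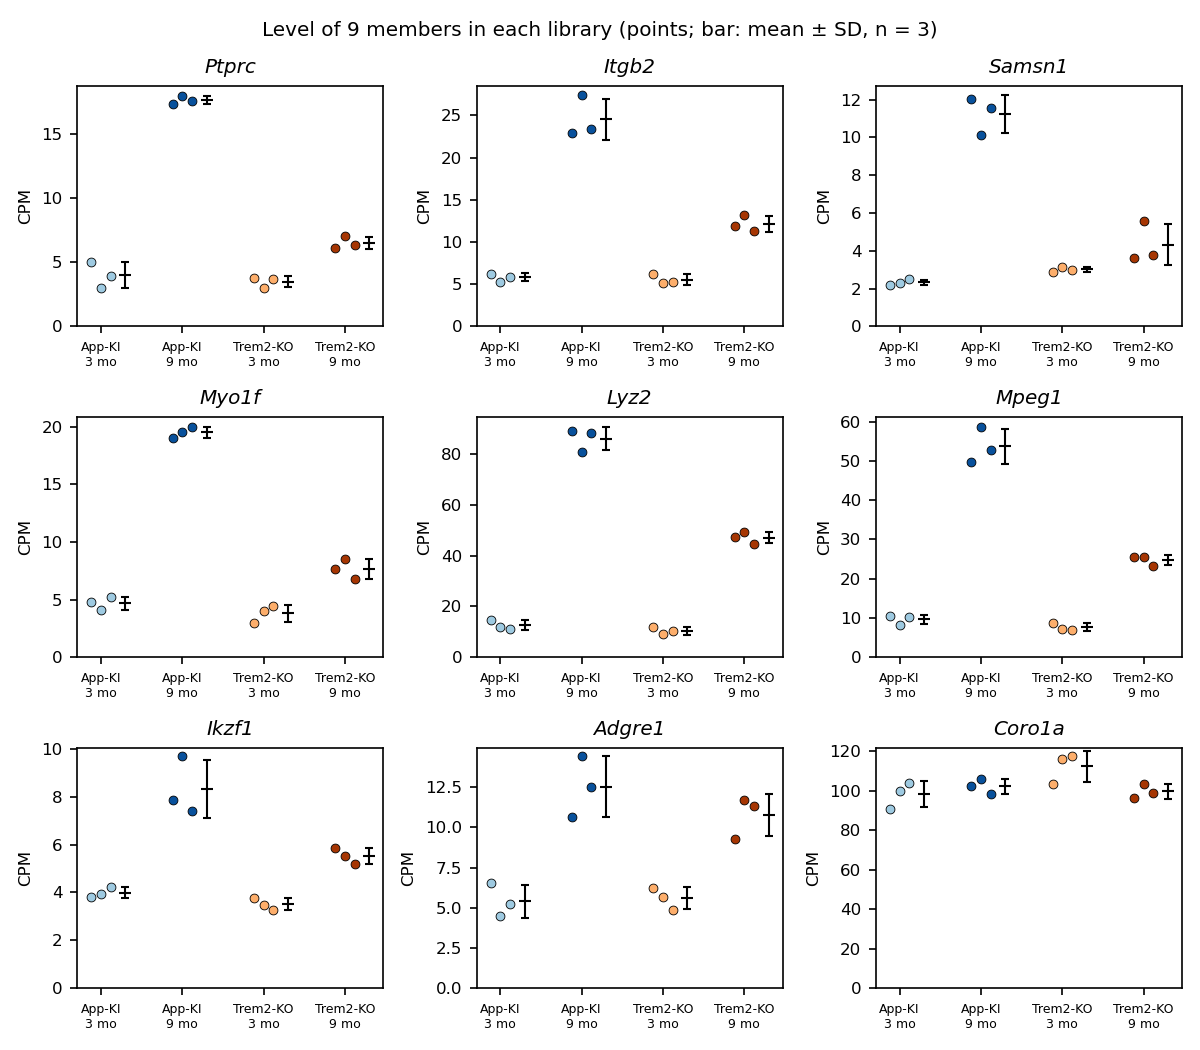
Level of 9 members (panels, y axes in CPM from 0) in each of the 12 libraries, 3 points a group with the mean and SD beside them. In 8 of the panels the App-KI libraries of 9 months have the highest mean, and in the Coro1a panel the 4 groups lie between 90.9 and 118 CPM.

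Ikzf1 encodes Ikaros, the zinc-finger factor of lymphoid and myeloid development, and was the only transcription factor among the members. It read 3.79, 3.94 and 4.24 CPM in App-KI at 3 months and 7.86, 9.71 and 7.41 CPM at 9 months. Ikzf1 in Trem2-KO read 3.77, 3.47 and 3.28 CPM and 5.87, 5.51 and 5.197 CPM. Trem2-KO libraries were under App-KI libraries at each age, by little at 3 months. Ikzf1 rose by 1.06 ± 0.15 in App-KI and 0.66 ± 0.15 in Trem2-KO and differed by -0.59 ± 0.14 between genotypes at 9 months. The genotype call was lost without App-KI 9 months mouse 1 or 2 or any Trem2-KO mouse of 9 months, and the age call in Trem2-KO without Trem2-KO 3 months mouse 3.

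The 3 effectors had the highest median rise with age of the roles, 2.46 in App-KI and 1.71 in Trem2-KO. Lyz2 and Mpeg1 carried it, while Unc93b1 rose by less than the median of all members in both genotypes. All 3 were lower in Trem2-KO at 9 months (median -0.87). Lyz2 encodes the lysozyme of macrophages and granulocytes. It read 14.8, 11.8 and 11.2 CPM in App-KI at 3 months and 88.8, 80.7 and 88.1 CPM at 9 months. Lyz2 in Trem2-KO read 11.9, 9.06 and 10.2 CPM and 47.4, 49.1 and 44.7 CPM. Levels were 6.80 times as high at 9 as at 3 months in App-KI and 4.54 times as high in Trem2-KO. Lyz2 rose by 2.76 ± 0.10 and 2.20 ± 0.10 on the log2 scale and differed by -0.87 ± 0.09 between genotypes at 9 months.

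Mpeg1 encodes perforin-2, a pore-forming protein of phagosomes. It read 10.4, 8.33 and 10.3 CPM in App-KI at 3 months and 49.7, 58.6 and 52.7 CPM at 9 months. Mpeg1 in Trem2-KO read 8.77, 7.21 and 6.84 CPM and 25.5, 25.4 and 23.3 CPM. No library of 1 age reached the other age, and at 9 months Trem2-KO had 46.2% of the App-KI level. Mpeg1 had the smallest adjusted p of the members between genotypes at 9 months, with -1.11 ± 0.10 (edgeR's quasi-likelihood test, Benjamini-Hochberg adjusted p = 3.29e-07). Unc93b1, the chaperone that carries nucleic acid-sensing Toll-like receptors to endosomes, rose by 1.13 ± 0.10 in App-KI and 0.70 ± 0.10 in Trem2-KO. Its genotype difference of -0.43 ± 0.10 was not called without App-KI 9 months mouse 1 or 2 or Trem2-KO 9 months mouse 1.

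The rise with age was smaller in Trem2-KO than in App-KI for 8 members by the test of that difference, the interaction of age and genotype. They were Ptprc (-1.22 ± 0.22), Itgb2 (-0.93 ± 0.17), Cd53 (-0.77 ± 0.13), Samsn1 (-1.76 ± 0.25), Klhl6 (-1.37 ± 0.27), Hcls1 (-1.15 ± 0.24), Myo1f (-1.06 ± 0.20) and Mpeg1 (-0.75 ± 0.15), in log2 units with SE. Of all genes, 0.266% were called, 0.209% as lower and 0.0574% as higher. The median of the members was -0.55, beside 0.0062 for all genes, and all 33 values lay below 0, from -1.76 to -0.09. Samsn1 had the smallest p of the 8 (edgeR's quasi-likelihood test, Benjamini-Hochberg adjusted p = 0.00109).

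Only Cd53 and Samsn1 kept the interaction call whichever library was left out. The count was 3 without App-KI 9 months mouse 2 or Trem2-KO 3 months mouse 1 and 4 without App-KI 9 months mouse 3 or Trem2-KO 3 months mouse 2. It was 5 without App-KI 9 months mouse 1 or Trem2-KO 3 months mouse 3. With the meningeal fibroblast covariate Samsn1 had -1.13 and Myo1f -0.66, edgeR called 0 members and 13 had an unadjusted p under 0.05, while DESeq2 without the covariate called 10.

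Levels of different members can be set side by side only per length of exon. On that scale Lyz2 led in App-KI at 9 months with 65.3 ± 3.41 CPM per kb (SD, n = 3), followed by Coro1a with 36.7 ± 1.40 and Cd53 with 18.3 ± 0.444. At 3 months in App-KI the order began with Coro1a at 35.3 ± 2.37, Lyz2 at 9.59 ± 1.47 and Cd53 at 7.41 ± 0.884 CPM per kb. Mpeg1 moved from rank 9 of 34 at 3 months to rank 4 at 9 months in App-KI, and it was at rank 6 in Trem2-KO at 9 months. Ptprc stood at rank 33 in App-KI at 9 months, with 0.962 ± 0.0174 CPM per kb over a merged exon length of 18313 bases, the longest of the members. Merged lengths join the exons of all annotated transcripts of a gene. A low rank can thus come from a long annotation as well as from few reads.

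Trem2-KO mice at 9 months retained different shares of the App-KI level among the members. Cd52 was at 22.7%, Ptprc at 36.9%, Samsn1 at 38.4% and Myo1f at 39.3%. At the other end Arhgdib was at 82.3%, Adgre1 at 85.9% and Coro1a at 97.5%. The 2 integrin chains lay apart, with Itgb2 at 49.3% and Itgam at 72.8%, though a difference between these genes was not tested.

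Many members have a sister gene of like sequence that most cells express, and 18 such paralogues were tested. Between genotypes at 9 months edgeR's quasi-likelihood test called 0 of the 18, 24 of the 33 members and 2.08% of all genes. Of the 18, 2 had an unadjusted p under 0.05. At 3 months 0 were called with 3 at an unadjusted p under 0.05. With age in App-KI 2 rose, Dock1 (0.38 ± 0.08) and Myo1e (0.79 ± 0.15), and in Trem2-KO Dock1 rose (0.44 ± 0.08). Of all genes, 6.66% and 8.7% were called in these age comparisons. An unadjusted p under 0.05 was reached by 7 of the 18 with age in App-KI and by 3 in Trem2-KO. Among the 19152 tested genes it was reached by 3271 and 4339. The medians of the 18 were 0.01 with age in App-KI and -0.005 between genotypes at 9 months.

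Rac1 read 458 ± 7.35 CPM (SD, n = 3) in App-KI at 3 months and 476 ± 13.02 CPM at 9 months, with a genotype value at 9 months of -0.06 ± 0.05 beside -0.67 ± 0.20 for Rac2. Nckap1, the WAVE subunit of most cells, had 0.09 ± 0.05 beside -0.78 ± 0.10 for Nckap1l. Cttn, or cortactin, had 0.10 ± 0.05 beside -1.09 ± 0.16 for Hcls1. Pls3 had 0.02 ± 0.05 beside -0.72 ± 0.10 for Lcp1, and Dock1 had -0.02 ± 0.08 beside -0.77 ± 0.13 for Dock2. Myo1e was the paralogue with the widest genotype value, -0.41 ± 0.15, beside -1.34 ± 0.13 for Myo1f, and it was not called.

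The other paralogues lay between -0.11 ± 0.05 (Bin1) and 0.10 ± 0.06 (Cyth3) at 9 months. In order they were Bin1, Pik3ca (-0.11 ± 0.06), Arhgdia (-0.10 ± 0.06), Cyth1 (-0.02 ± 0.05), Pik3cb (-0.01 ± 0.06), Coro1b (-0.01 ± 0.07), Cyth2 (-0.0027 ± 0.06), Aif1l (0.03 ± 0.11), Wasl (0.05 ± 0.05), Coro1c (0.06 ± 0.06), Rac3 (0.07 ± 0.11) and Cyth3. Over the longest open reading frames of the GENCODE transcripts, aligned bases were identical at 77.85% between Rac2 and Rac1, the closest pair of 17, and at 61.28% between Pik3cg and Pik3cb, the most distant. The sources used here do not give how reads that fit both members of a pair were counted.

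**Figure D3:**
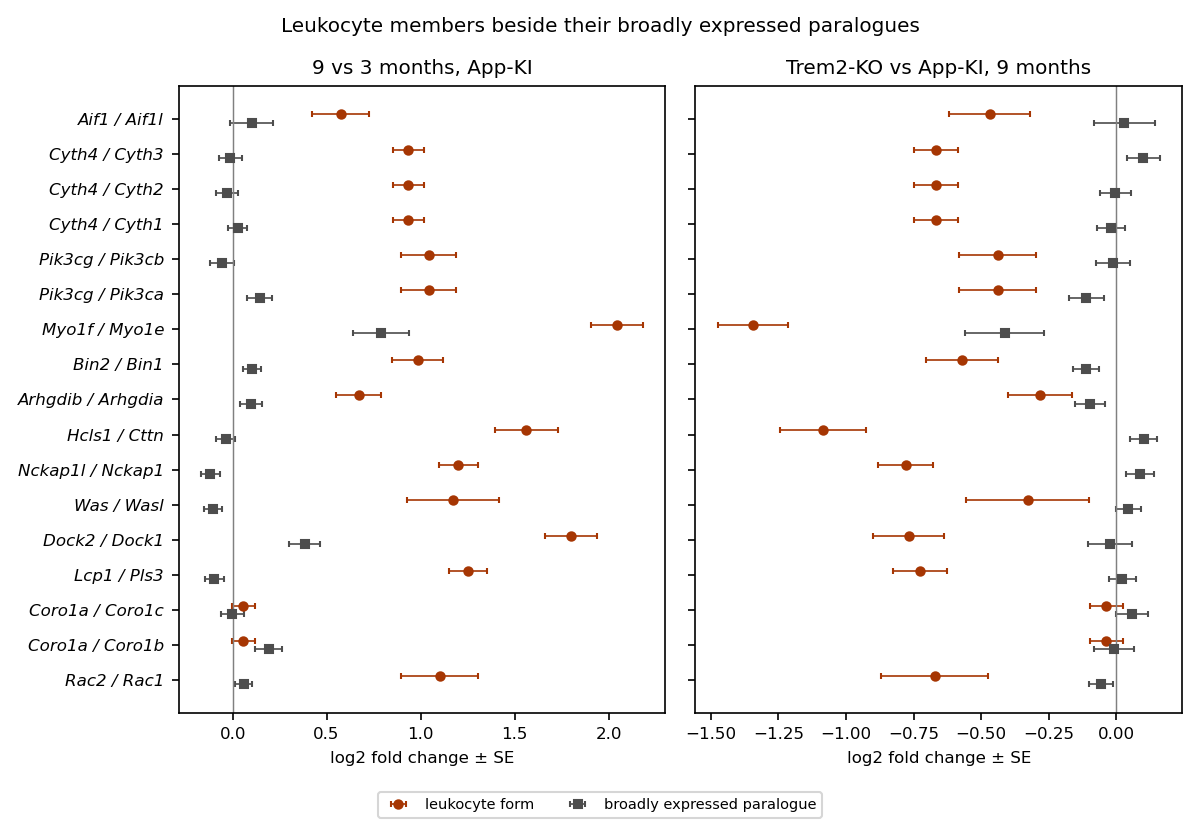
Log2 fold changes with standard errors (x axes) of leukocyte members (circles) and their broadly expressed paralogues (squares), 17 pairs as rows, for age in App-KI and for genotype at 9 months, 3 libraries a group. The squares gather near 0 except those of Dock1 and Myo1e with age and of Myo1e between genotypes, and both Coro1a and its paralogues stay near 0.

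Of 56 further leukocyte signalling genes listed for the same pathways, 53 were tested, and more of them rose with age than not. With age in App-KI 40 rose (median 1.05) and in Trem2-KO 28 rose (median 0.59), while 19 were lower in Trem2-KO at 9 months (median -0.58). At 3 months edgeR called 0 between genotypes, with 7 at an unadjusted p under 0.05. The interaction was called for 6, namely Inpp5d, Lair1, Laptm5, Ly86, Plek and Selplg.

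The 4 with the smallest p between genotypes at 9 months were Laptm5, Plek, Ly86 and Lair1. Laptm5, a lysosomal protein that lowers receptor levels, differed by -0.83 ± 0.06, and Plek, or pleckstrin, a protein kinase C substrate, by -0.91 ± 0.08. Ly86, the partner of the Toll-like receptor relative CD180, differed by -1.16 ± 0.11, and Lair1, an inhibitory collagen receptor, by -0.94 ± 0.09. Abundant genes of that list that were not called included Fmnl1 at -0.13 ± 0.06, Dock10 at 0.08 ± 0.16, Evi2a at -0.21 ± 0.09 and Prkcd at 0.16 ± 0.15.

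Of 14283 other genes whose log2 CPM averaged 1 or more, those most like the members' mean log2 CPM over the 12 libraries included Laptm5 (Pearson r = 0.996), C1qc (0.996), Ctss (0.995), Fcgr3 (0.995), Plek (0.994), Ccl6 (0.992) and Cd68 (0.991). Laptm5 read 44.6 ± 1.78 CPM (SD, n = 3) in App-KI at 3 months, 147 ± 2.41 at 9 months, and 41.2 ± 2.33 and 82.2 ± 7.38 in Trem2-KO. Ctss, the protease cathepsin S, read 68.9 ± 3.59, 290.1 ± 12.7, 67.0 ± 4.37 and 149 ± 14.7 CPM in the same order. Ccl6, a chemokine, read 2.17 ± 0.260, 26.1 ± 1.51, 2.04 ± 0.330 and 6.71 ± 0.667 CPM. All 3 had the group order of the members. They were picked by their correlation over these same libraries, so the shared order is not a separate result.

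Genes that mark homeostatic microglia also rose with age and were lower in Trem2-KO. Of 12, 11 rose with age in App-KI (median 0.90), 9 rose in Trem2-KO (median 0.49) and 9 were lower in Trem2-KO at 9 months (median -0.53). Their summed level was 809 ± 41.8 CPM (SD, n = 3) and 1402 ± 24.0 CPM in App-KI and 786 ± 11.1 and 1027 ± 51.9 CPM in Trem2-KO, at 3 and 9 months in turn. Set against the median of those 12 genes, the members' median came to 0.35 with age in App-KI, 0.36 with age in Trem2-KO and -0.18 between genotypes at 9 months. These differences were not tested.

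Markers of border macrophages and monocytes ran the other way between genotypes at 9 months. Of 11 listed, 9 were tested, all 9 had a value above 0 between genotypes at 9 months (median 0.91), and 1, the lectin Clec10a, was called higher. An unadjusted p under 0.05 was reached there by 8 of the 9, and by 2613 of the 19152 tested genes. With age in Trem2-KO all 9 had a value above 0 (median 0.98), as nearly all members did, and 4 were called. With age in App-KI 7 of the 9 were below 0 (median -0.17), and edgeR called 0, with 1 at an unadjusted p under 0.05. Their summed level was 15.6 to 23.0 CPM and 12.6 to 20.7 CPM in App-KI and 11.2 to 16.9 CPM and 24.2 to 33.6 CPM in Trem2-KO at 3 and 9 months. The Trem2-KO libraries of 9 months were above all the others, while the members' summed level was lower there than in App-KI of that age. Their part in the members' values was not tested.

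Meningeal fibroblast genes, 11 in all, were also high on average in Trem2-KO at 9 months. Between genotypes at that age 10 of the 11 had values above 0 (median 1.06) and 1 was called higher, with 9 at an unadjusted p under 0.05. The 11 genes summed to 895.5 to 1897 CPM in Trem2-KO and 516 to 896.2 CPM in App-KI at 9 months. Over both young groups the sum was 655 to 1131 CPM, so the Trem2-KO libraries of 9 months overlapped both App-KI groups. Ptgds held 164475 counts over the 12 libraries and the next gene, Dcn, 22844. The genes' mean log2 CPM was 4.80 to 5.29 in Trem2-KO at 9 months and at most 4.59 in any other library. Endothelial genes, 7 in all, summed to 382 to 394 CPM in Trem2-KO at 9 months and to 292 to 328 CPM in App-KI of that age, without overlap. At 3 months they summed to 337 to 349.6 CPM in App-KI and 335 to 379 CPM in Trem2-KO. All 7 had values above 0 between genotypes at 9 months (median 0.29) and 2 were called higher, the membrane protein gene Itm2a (0.48 ± 0.07) and the transporter gene Slco1a4 (0.42 ± 0.08), while 3 rose with age in Trem2-KO. The part of endothelial cells in the members' values was not tested. Choroid plexus genes summed to between 342 and 7756 CPM with no group apart, and edgeR called 0 of 10 of them between genotypes at 9 months, with 0 at an unadjusted p under 0.05.

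Lymphocyte and granulocyte markers were mostly low, with exceptions among the B and plasma cell genes. Of 13 T and natural killer cell genes 4 were tested and edgeR called 0 between genotypes at 9 months, with 0 at an unadjusted p under 0.05. They summed to 4.45 to 6.15 CPM and 5.90 to 8.60 CPM in App-KI and 5.54 to 6.17 CPM and 5.27 to 7.37 CPM in Trem2-KO. Lck had 435 counts over the 12 libraries, Skap1 432 and Trac 317, while Cd3e had 40, Cd3d 3 and Gzma 0. Of 9 B and plasma cell genes 2 were tested, Ighm, the heavy chain of immunoglobulin M, and Jchain, which joins immunoglobulin units. Ighm read 6.17 to 41.4 CPM over the libraries and rose with age by 2.03 ± 0.34 in App-KI and by 1.35 ± 0.34 in Trem2-KO, while Jchain was not called. The B and plasma cell genes summed to 7.02 to 10.4 CPM and 23.8 to 44.0 CPM in App-KI and to 10.6 to 11.8 CPM and 21.4 to 41.5 CPM in Trem2-KO at 3 and 9 months. They were thus higher at 9 months in both genotypes, as the members were, and the genotypes overlapped at 9 months. Ms4a1 of that list had 5 counts in all. Of the neutrophil and mast cell genes S100a8 had 23 counts and Ly6g 3, while Kit, which neurons also express, read 125 to 167 CPM. The part of these cells in the members' values was not tested.

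**Figure D4:**
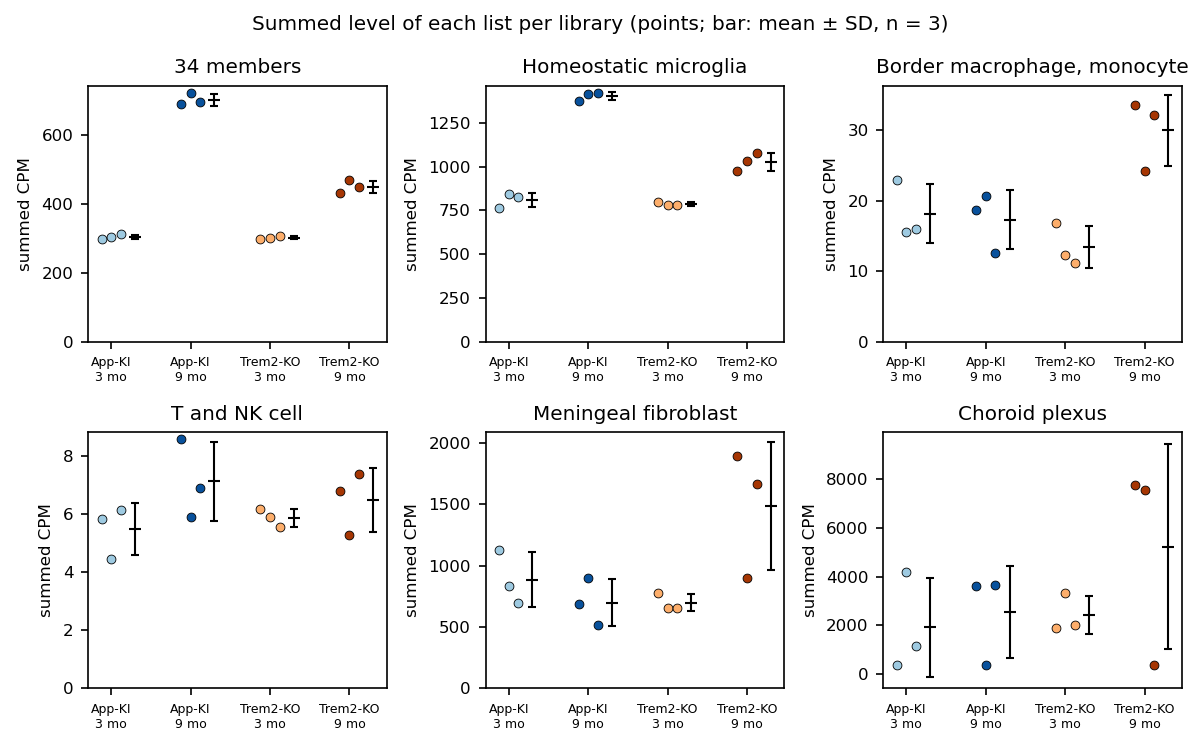
Summed level (y axes, CPM) of the 34 members and of 5 marker lists in each of the 12 libraries, as points with mean and SD bars, n = 3. The members and the homeostatic microglial genes are highest in App-KI at 9 months and the border macrophage genes in Trem2-KO at 9 months. The meningeal fibroblast genes have their highest mean in Trem2-KO at 9 months but overlap both App-KI groups, and the choroid plexus genes scatter within groups.

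Some members share exon bases with other genes in the annotation, where counts may be split. Itgam shares 68.7% of its exon bases on the same strand with Gm49368, a row that held 2 counts in all. Cd52 shares 14.5% with Crybg2 on the opposite strand, and Arhgdib shares 7.97% with Pde6h. Lyz1, a near copy of Lyz2, held 10 counts over the 12 libraries.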

How the data were processed

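Messenger RNA of 12 hippocampi was measured by RNA sequencing with a SMART-Seq kit, per the labels' protocols. The authors deposited 1 table of raw read counts per Ensembl gene. The submitters' processing notes name build GRCm39 and, as tools, DESeq2 1.36.0, R 4.2.0, STAR 2.7.10a and featureCounts 2.0.3. The sources used here give no annotation release, strand setting or treatment of multi-mapping reads. Library totals were 14627892 to 24594655 counts.

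Symbols came from GENCODE M21 (build GRCm38) for 52073 of 56980 identifiers, as did exon lengths. No coordinates were taken from the count table. Genes were kept by filterByExpr (minimum count 10, minimum total 15), scaled by TMM and fitted in R 4.3.3 with edgeR 4.0.16's quasi-likelihood test over the 4 groups (8 residual degrees of freedom). All p-values were adjusted by the Benjamini-Hochberg method over 19152 genes, for 5 comparisons, and called means an adjusted p under 0.05. The SE of a log2 fold change is its unshrunken value divided by the square root of the test's F statistic. Fits were tested on simulated data.

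The members and gene lists were chosen with earlier results of these data known. Values in every library are given for the members with the 5 largest and 5 smallest changes, for those whose call differs from most members, and for at least 1 per role. Of the 8 genes most like the members and of the marker genes, 1 each is not reported here. Alternatives were RLE scaling, DESeq2 1.42.0, no filter, the 6 libraries of a comparison alone, leaving out each library, and the mean log2 CPM of meningeal fibroblast genes as a covariate.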

Additional observations from a re-analysis of the deposited data

Results flagged for a closer look

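For 8 members the change with age differed between the genotypes by the test of that difference, edgeR's quasi-likelihood test of the interaction with Benjamini-Hochberg adjustment over all tested genes. The log2 differences, Trem2-KO minus App-KI, were -1.22 for Ptprc, -0.93 for Itgb2, -0.77 for Cd53, -1.76 for Samsn1, -1.37 for Klhl6, -1.15 for Hcls1, -1.06 for Myo1f and -0.75 for Mpeg1. Only Cd53 and Samsn1 kept this call in each of the 12 fits that left out 1 library. Ptprc and Itgb2 kept it in 10 of these fits, Myo1f and Mpeg1 in 6, Klhl6 in 4 and Hcls1 in 2.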

How the results depend on the processing

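The number of tested genes called between genotypes at 3 months was 113, and it was 347 with no filter on low counts, 264 with DESeq2 and 218 from the 6 libraries alone, or 26 to 154 when 1 library was left out. At 9 months 398 genes were called (131 higher, 267 lower), 831 with no filter (437 higher, 394 lower) and 175 to 556 with 1 library left out. The lowest counts were those without Trem2-KO 3 months mouse 3 and without App-KI 9 months mouse 3. With age 1276 genes were called in App-KI (788 to 1523 leaving out a library, the lowest without App-KI 9 months mouse 2) and 1667 in Trem2-KO (769 to 1920, the lowest without Trem2-KO 3 months mouse 3). The interaction was called for 51 genes, 187 with no filter, 102 with DESeq2 and 29 to 76 leaving out a library. Among the members it was called for 8, 13 with no filter and 3 to 9 leaving out a library.

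With the meningeal fibroblast score as a covariate the counts were 30 genes and 6 members between genotypes at 9 months, 65 genes and 3 members with age in Trem2-KO, and 0 genes and 0 members for the interaction. Fyb with age in Trem2-KO then had -0.12 in place of 0.95. The score was higher in all Trem2-KO libraries of 9 months than in any other library, so score and group can hardly be told apart in these fits. The cause of the lower counts was not tested. Relative to the median of homeostatic microglial genes, which is a shift of every value by construction, the members' median was -0.18 between genotypes at 9 months, 0.35 with age in App-KI, 0.36 with age in Trem2-KO and -0.15 for the interaction. No paired analysis was possible because the labels give each mouse its own number and no number is shared between groups. Members with few reads, such as Cd52, Was, Cd48 and Rac2, had the widest errors.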
